A study of Caenorhabditis elegans with 27 samples.

Results

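The TRIM-NHL genes of Caenorhabditis elegans were followed in animals on control RNAi and in the knockdowns gld-2(RNAi) and gld-4(RNAi). The family was taken as 5 genes, lin-41, ncl-1, nhl-1, nhl-2 and nhl-3, out of 45461 features in the deposited count table. They were chosen by name, and each was found in the table through the sequence identifier that the deposited tables pair with that name: C12C8.3 for lin-41, ZK112.2 for ncl-1, F54G8.4 for nhl-1, F26F4.7 for nhl-2 and W04H10.3 for nhl-3.

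TRIM-NHL proteins join a TRIM module, which in many members carries a RING finger typical of ubiquitin ligases, to NHL repeats that fold into a propeller and in several members bind RNA. Best known as post-transcriptional repressors, they act in developmental timing, in oocytes and in stem cell lineages across animals. LIN-41 is the classical let-7 microRNA target of the larval timing pathway and also controls oocyte growth and maturation, where it is found in ribonucleoprotein particles together with OMA-1, OMA-2 and the poly(A) polymerase GLD-2. NCL-1 restrains nucleolar size and the production of fibrillarin. NHL-2 works with microRNA complexes and with the helicase CGH-1, and takes part in small RNA pathways of the germ line. NHL-1 has been found to bind ubiquitin-conjugating enzymes and to act in neurons during stress, and the role of NHL-3 is little described.

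The animals were N2 young adults, grown on feeding plates until a day past mid-L4 and taken whole, and RNAi was given by feeding, with bacteria carrying the empty vector as control RNAi, so that all groups were wild-type hermaphrodites fed RNAi bacteria. GLD-2 and GLD-4 are cytoplasmic poly(A) polymerases, and the design asks how the abundance and the polysome loading of mRNAs depend on each of them. Poly(A)-enriched RNA was sequenced from whole extract (input) and from the non-polysomal (NP) and polysomal (P) parts of a sucrose gradient, with 3 libraries for each of the 9 combinations of RNAi and fraction. Because RNA was collected on oligo(dT) beads, a level here is that of mRNA retained by those beads, and a whole-animal library cannot tell fewer cells of a type from less RNA per cell.

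The 27 libraries held 12160686 to 18132556 counts (median 15121697), which were scaled to a common level by the TMM method and are given below as normalized counts. Each RNAi lowered its own target in input: gld-2 stood at 101 ± 43.9 normalized counts in gld-2(RNAi) against 1186 ± 360 in control RNAi, and gld-4 at 222 ± 76.7 in gld-4(RNAi) against 2386 ± 613 (mean ± SD, n = 3). In gld-2(RNAi), gld-4 was lower too, at 1079 ± 115 in NP against 2637 ± 539 in control RNAi. In P it was at 1117 ± 184 against 2247 ± 351. These groups did not overlap, while input did, at 1616 ± 455. gld-2 in gld-4(RNAi) overlapped its control in every fraction. These differences were not tested. Markers of oocytes, sperm and embryos had counts in every group, although the embryo marker med-1 was at 0 in the input of both knockdowns. The authors describe gld-2(RNAi) animals as sterile and name the absence of embryos as a difference of gld-2-compromised animals from wild type. Embryo markers summed to 707 to 1086 normalized counts in control input, 239 to 368 in gld-2(RNAi) and 202 to 889 in gld-4(RNAi). In input, 14 oocyte and eggshell markers summed to 191700 to 254700 normalized counts in control libraries, 66940 to 106900 in gld-2(RNAi) and 281800 to 394900 in gld-4(RNAi), and the 15 sperm markers found summed to 1481 to 6207, 16600 to 40290 and 2055 to 12950. Replicate 1 stood apart within every group: its sperm, muscle, intestine and epidermis sums were the highest of the 3 and its embryo sum the lowest, for example 202 in gld-4(RNAi) input against 868 and 889 in replicates 2 and 3. Calls that were gained or lost without replicate 1 of every group are therefore given beside the results. Replicates 2 and 3 were the more alike libraries of every group, so smaller p-values were likely in that setting. Of its 60 member values, 15 newly passed and 0 no longer passed. Calls gained in this way are a description and add no support. Genes were tested with edgeR's quasi-likelihood test among 7418 expressed genes (a mean of at least 100 normalized counts over the 9 input libraries), and a gene passed at an adjusted p of at most 0.05. Of the 5 members, 4 reached that minimum. nhl-1 did not, with a mean of 30.3, and its values come from a fit of every gene with a count.

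In control RNAi input, the members covered a wide range of levels. Per kilobase of exon, lin-41 stood highest at 648 ± 61.1 normalized counts, followed by nhl-2 at 572 ± 38.7, ncl-1 at 361 ± 86.8, nhl-3 at 76 ± 3.70 and nhl-1 at 8.89 ± 2.07 (mean ± SD, n = 3). The 3 libraries of lin-41 and those of nhl-2 overlapped, and the other steps of this order had no overlap. Among the expressed genes, the levels per kilobase of lin-41 and nhl-2 were at the 55.8 and 51.8 percentiles, close to the middle, that of ncl-1 at the 37.4 and that of nhl-3 at the 7.70 percentile. As a share of the summed family level per kilobase, lin-41 made up 38.9% ± 0.638 and nhl-2 34.4% ± 1.56. The exons of ncl-1 and nhl-1 overlap a gene on the other strand (ZK112.5 and ZK512.8), and whether the counting used strand is not given clearly in the sources used here, so the counts of these 2 members may include reads of their neighbours.

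**Figure D1:**
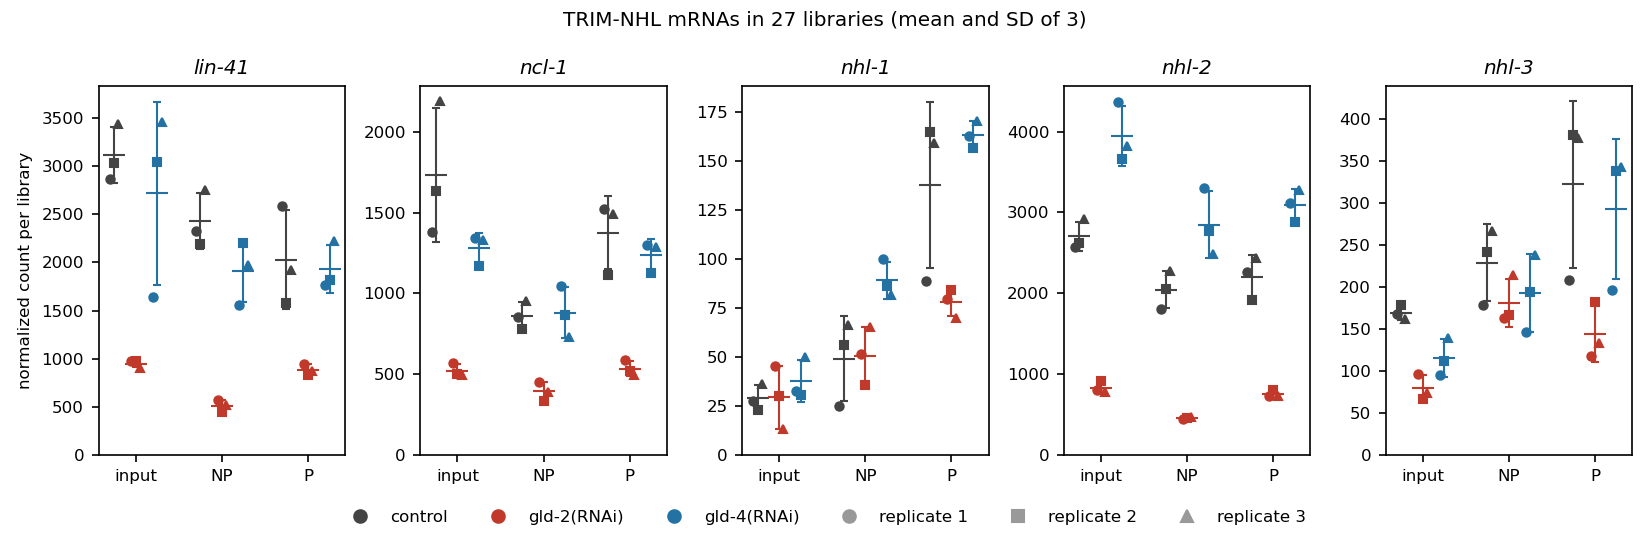
Normalized counts (vertical axis, a separate linear scale for each gene) of the 5 TRIM-NHL mRNAs in input, NP and P libraries of each RNAi group; marker shapes are replicates 1 to 3, the dash is the mean and the bar the SD of 3. lin-41, ncl-1 and nhl-2 of gld-2(RNAi) lie below the control libraries in all 3 fractions, while nhl-2 of gld-4(RNAi) lies above them.

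lin-41, ncl-1, nhl-2 and nhl-3 mRNAs were all reduced in gld-2(RNAi) input, by 2.06- to 3.21-fold. The first 3 of these fell by nearly the same factor. All 4 members past the minimum passed the test, against 24.7% of expressed genes that passed as lower, and all 4 were past 2-fold, against 12.2%. The median log2 difference of the 4 was -1.66, and that of all expressed genes 0.03.

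lin-41 was counted at 2869.8, 3041 and 3443 in control RNAi replicates 1 to 3 and at 969, 971 and 905 in gld-2(RNAi). Every gld-2(RNAi) library was below every control library, and the log2 difference was -1.66 ± 0.12 (± SE; edgeR adjusted p = 0.000269). ncl-1 had 1378, 1634 and 2193 normalized counts in control RNAi and 569, 498 and 496 in gld-2(RNAi). Its control libraries were the more scattered, again without overlap, with a log2 difference of -1.68 ± 0.19 (edgeR adjusted p = 0.000874). For nhl-2, the control libraries gave 2575, 2622 and 2912, and those of gld-2(RNAi) gave 802, 913 and 772. The groups were far apart relative to their spread, at a log2 difference of -1.65 ± 0.12 (edgeR adjusted p = 0.000272).

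nhl-3 was much lower in level, at 168, 178 and 162 in control RNAi and 96.7, 66.8 and 74.0 in gld-2(RNAi). Its groups did not overlap either, and it fell by 1.04 ± 0.24 on the log2 scale (edgeR adjusted p = 0.0111). That call was lost without control replicate 2 (edgeR adjusted p = 0.0501). nhl-1 was counted at 27.6, 22.8 and 36.0 against 45.3, 29.8 and 13. These few reads overlapped between groups, and its log2 difference of -0.12 ± 0.51 did not pass (edgeR adjusted p = 0.898, over 19767 genes). Oocyte and eggshell markers moved in the same libraries: 9 of 14 tested fell, 1 rose, and their median log2 difference was -1.10. Of 9 markers of germ cells before gametes 6 fell and 2 rose (median -0.69), and 2 of 3 embryo markers tested fell (median -1.94), while all 12 sperm markers tested rose (median 3.02), against 21.4% of expressed genes that passed as higher. Among somatic tissues, 2 of 4 epidermis markers fell (median -0.89), 1 of 4 neuronal markers fell and 1 rose (median -0.18), and the medians of 10 muscle and 7 intestine markers were -0.05 and -0.15. The part of these tissues in the lower TRIM-NHL levels was not tested.

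In gld-4(RNAi) input nhl-2 rose, and no other member passed the test. nhl-2 was counted at 4367, 3656 and 3825 in gld-4(RNAi), above all 3 control libraries, and rose by 0.56 ± 0.10 on the log2 scale, or 1.47-fold (edgeR adjusted p = 0.0198). 1 of the 4 members past the minimum thus passed as higher, against 7.08% of expressed genes, and 0 of 4 passed as lower, against 7.54%. The nhl-2 call did not survive in 5 of 6 fits without a single library, where adjusted p reached 0.122, although its log2 difference stayed between 0.49 and 0.61. It was also lost when every gene with a count was tested (edgeR adjusted p = 0.0895), and held without replicate 1 of both groups at a log2 difference of 0.43.

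lin-41 gave 1645, 3050.5 and 3467 in gld-4(RNAi) input. Replicate 1 alone lay below the controls, the other replicates within or just above them. The log2 difference of -0.18 ± 0.27 did not pass (edgeR adjusted p = 0.691), and it turned to 0.09 without gld-4(RNAi) replicate 1. ncl-1 was at 1341, 1167 and 1329, just below its 3 control libraries (log2 difference -0.42 ± 0.17, edgeR adjusted p = 0.148), and nhl-3 at 94.6, 112 and 139 (-0.54 ± 0.22, edgeR adjusted p = 0.156). Neither group overlapped its control, and both members passed as lower with the replicate number as a block (edgeR adjusted p = 0.0264 for ncl-1 and 0.0467 for nhl-3), which took the count of members past the threshold from 1 to 3. They also passed without replicate 1 of both groups, at -0.62 and -0.43 (edgeR adjusted p = 0.000447 and 0.0412). nhl-1, at 32.3, 30.4 and 50.0, overlapped the control (log2 difference 0.32 ± 0.42, edgeR adjusted p = 0.776). Of the 14 oocyte and eggshell markers, 4 rose and 0 fell in the same libraries (median 0.60, against 0.03 over all expressed genes), and their part in the nhl-2 level was not tested.

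Set directly against each other in input, gld-2(RNAi) had less lin-41, ncl-1 and nhl-2 than gld-4(RNAi). The largest of these differences was that of nhl-2, at -2.25 ± 0.13 on the log2 scale, 4.74-fold lower in gld-2(RNAi) (edgeR adjusted p = 9.08e-05). lin-41 differed by -1.52 ± 0.28 (edgeR adjusted p = 0.00432) and ncl-1 by -1.29 ± 0.13 (edgeR adjusted p = 0.000367). nhl-3 did not pass at -0.54 ± 0.30 (edgeR adjusted p = 0.178), with overlapping groups, but was lower without replicate 1 of both groups (-0.85, edgeR adjusted p = 0.00306). Thus 3 of 4 members passed as lower, against 25% of expressed genes. nhl-1 had a log2 difference of -0.51 ± 0.53 (edgeR adjusted p = 0.566), and passed as lower without replicate 1 of both groups (-1.03, edgeR adjusted p = 0.0149). In share of the summed family level per kilobase, nhl-2 took up 48.7% ± 8.02 in gld-4(RNAi) input and 33.4% ± 2.46 in gld-2(RNAi) input.

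**Figure D2:**
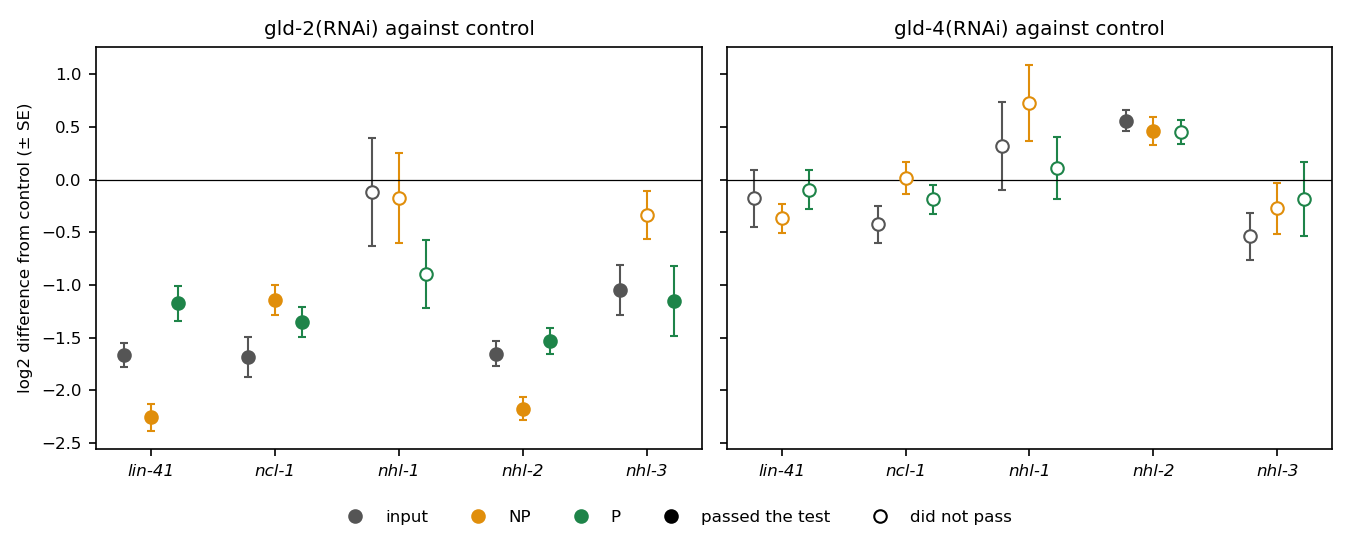
Log2 difference from control RNAi (vertical axis, ± SE) of each TRIM-NHL mRNA in input, NP and P, for gld-2(RNAi) at left and gld-4(RNAi) at right; filled points passed the test and open points did not. In gld-2(RNAi) the NP difference of lin-41 (-2.26) and nhl-2 (-2.17) is larger than their P difference (-1.17 and -1.53), and in gld-4(RNAi) the 3 points of nhl-2 lie between 0.46 and 0.56.

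In the gradient fractions of gld-2(RNAi), lin-41, ncl-1 and nhl-2 were again reduced, and the log2 differences of lin-41 and nhl-2 were larger in NP than in P, which is tested with the P/NP ratio. In NP, lin-41 was counted at 2333, 2197 and 2754 in control RNAi and 565, 447 and 516 in gld-2(RNAi). This gap, 4.78-fold, was the widest of the family in any comparison with the control (log2 difference -2.26 ± 0.13, edgeR adjusted p = 7.12e-05). nhl-2 in NP came to 1804, 2056 and 2269.9 against 435, 457 and 464, nearly as wide and with little scatter (-2.17 ± 0.11, edgeR adjusted p = 6.12e-05). ncl-1 in NP gave 852, 781 and 954 against 453, 334 and 387 (-1.14 ± 0.15, edgeR adjusted p = 0.000816). nhl-3, at 178, 242 and 267 against 163, 167 and 214, overlapped in NP and did not pass (-0.34 ± 0.23, edgeR adjusted p = 0.241), although it passed as lower without replicate 1 of both groups (-0.43, edgeR adjusted p = 0.00856). nhl-1 did not pass, at 24.6, 56.1 and 66.3 against 51.2, 35.8 and 65.0 (-0.18 ± 0.43, edgeR adjusted p = 0.790). In NP, 3 of 4 members passed as lower, against 30.2% of expressed genes.

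On polysomes, lin-41 was at 2589, 1579 and 1917 in control RNAi and 946, 833 and 868 in gld-2(RNAi). Control replicate 1 was the highest, and the groups did not overlap (-1.17 ± 0.17, edgeR adjusted p = 0.00412). ncl-1 gave 1524, 1117 and 1491 against 588, 521 and 493 (-1.35 ± 0.14, edgeR adjusted p = 0.00164), and nhl-2 gave 2264, 1910.0 and 2435 against 723, 804 and 729 (-1.53 ± 0.12, edgeR adjusted p = 0.000857). These members stood below every control library. nhl-3, at 208, 381 and 378 against 118, 182 and 133, also fell in P (-1.15 ± 0.33, edgeR adjusted p = 0.0382), but 5 of 6 fits without a single library lost the call, each except that without control replicate 1. nhl-1 on polysomes was at 88.8, 165 and 159 in control RNAi and 79.7, 83.9 and 70.0 in gld-2(RNAi); its groups did not overlap, although control replicate 1 came close. Its log2 difference of -0.90 ± 0.32 did not pass (edgeR adjusted p = 0.0910), and passed with the replicate block (edgeR adjusted p = 0.0198) and without replicate 1 of both groups (-1.11, edgeR adjusted p = 3.00e-10, with 2 libraries a group). All 4 members past the minimum were lower in P, against 21.3% of expressed genes. Among oocyte and eggshell markers 11 of 14 fell in NP and 11 of 14 in P, and their part in the lower levels was not tested there either.

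In the fractions of gld-4(RNAi), nhl-2 libraries again lay above the control. The mRNA was counted at 3295, 2766 and 2484 in NP, where it rose by 0.46 ± 0.14 on the log2 scale (edgeR adjusted p = 0.0479), as 1 of 4 members against 9.68% of expressed genes. Each of the 6 fits without a single library lost this call. On polysomes it was at 3119, 2883 and 3279, above all 3 controls, at a nearly equal log2 difference of 0.46 ± 0.12 that did not pass (edgeR adjusted p = 0.0853). With the replicate block the polysomal difference passed (edgeR adjusted p = 0.0205), as it did without replicate 1 of both groups (0.45, edgeR adjusted p = 0.00917). 0 of 4 members passed in P, where 1.12% of expressed genes passed as higher and 2.68% as lower; 1759 of the 7418 genes had an unadjusted p under 0.05, and DESeq2 called 1 member, nhl-2.

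lin-41 in NP of gld-4(RNAi) gave 1556, 2199.9 and 1974, with replicate 2 just above the lowest control library (-0.37 ± 0.14, edgeR adjusted p = 0.0980). It was called lower with the replicate block (edgeR adjusted p = 0.0257), which made 2 members past the threshold in NP, and without replicate 1 of both groups (-0.28, edgeR adjusted p = 0.0355). nhl-1 lay above its controls in NP of gld-4(RNAi), at 99.8, 86.2 and 81.6 (0.73 ± 0.36, edgeR adjusted p = 0.330; 0.0341 with the replicate block). For ncl-1 and nhl-3 in both fractions and for lin-41 and nhl-1 in P, gld-4(RNAi) libraries overlapped the control, with log2 differences of -0.27 to 0.11 and adjusted p of 0.437 or more.

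Polysome loading was read from the P/NP ratio of each gradient, with NP and P of the same replicate number taken as parts of the same gradient. The main tests ignore that pairing. Fits that use it as a block are given where they changed a call. Since libraries were scaled within themselves, a ratio is relative to the average expressed mRNA, and the spiked-in luciferase RNA of the gradient fractions, of which the count table has 0 features, was not used. In control RNAi, nhl-1 and ncl-1 were the members that passed as higher in P than in NP. nhl-1 had log2 P/NP values of 1.85, 1.56 and 1.26 in gradients 1 to 3, and P exceeded NP by 1.46 ± 0.39 in the fit (edgeR adjusted p = 0.0175; 12.5% of 20656 genes with a count passed as higher). Without NP replicate 2, P replicate 2 or P replicate 3 this call was lost (highest adjusted p = 0.0677). For ncl-1, log2 P/NP was 0.84, 0.52 and 0.64, and P exceeded NP by 0.77 ± 0.14 (edgeR adjusted p = 0.00270). It was 1 of 4 members past the minimum, a share near the 33.6% of expressed genes. With library size alone as the scaling, which moved the median of all expressed genes from 0.05 to -0.31, ncl-1 still passed at 0.40 (edgeR adjusted p = 0.0488).

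lin-41, nhl-2 and nhl-3 did not pass in control RNAi. lin-41 was at 0.15, -0.48 and -0.52, so that gradient 1 lay on the other side of 0 from gradients 2 and 3 (-0.17 ± 0.18, edgeR adjusted p = 0.424). Without gradient 1 it passed as lower in P, at -0.41 (edgeR adjusted p = 0.00326). nhl-2 had 0.33, -0.11 and 0.10 (0.21 ± 0.13, edgeR adjusted p = 0.174), a direction that turned to -0.16 with library size alone. nhl-3 had 0.22, 0.66 and 0.50 (0.61 ± 0.30, edgeR adjusted p = 0.110). With the replicate block nhl-2 and nhl-3 passed as higher too (edgeR adjusted p = 0.0318 and 0.00184), 3 members in all, and nhl-3 also without gradient 1 (0.67, edgeR adjusted p = 8.50e-05).

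**Figure D3:**
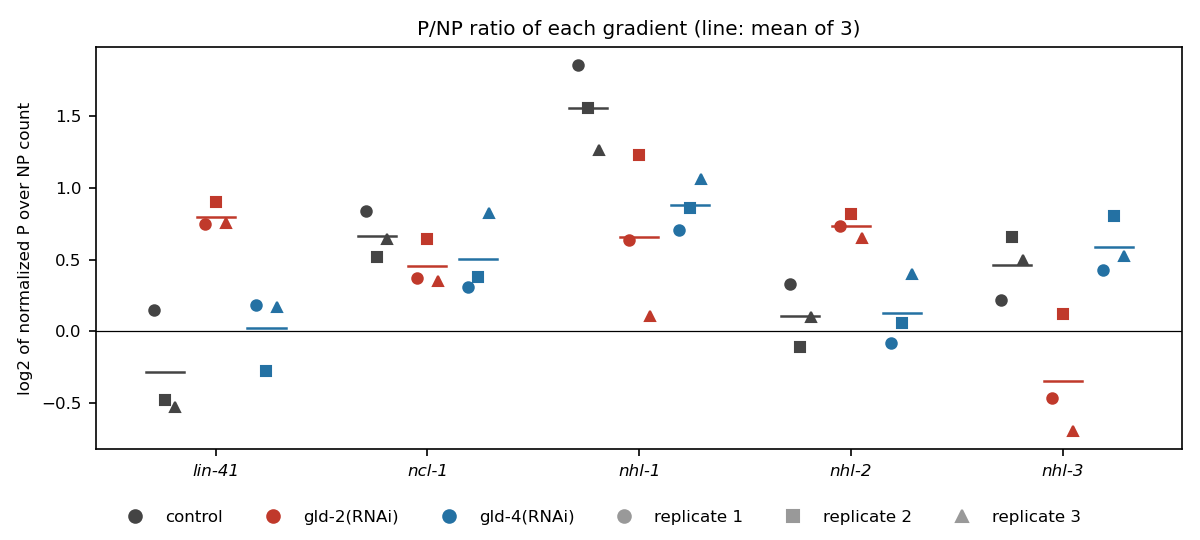
Log2 of the P over NP normalized count in each gradient (vertical axis) for the 5 TRIM-NHL mRNAs; marker shapes are replicates 1 to 3 and lines are means of 3. The 3 gld-2(RNAi) gradients of lin-41 (0.75 to 0.90) and of nhl-2 (0.65 to 0.82) lie above all of their control gradients, and those of nhl-3 and nhl-1 below. The gld-4(RNAi) gradients of nhl-1 (0.71 to 1.06) also lie below its control gradients.

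In gld-2(RNAi), lin-41, nhl-2 and ncl-1 were all higher in P than in NP. The P/NP values of lin-41 were 0.75, 0.90 and 0.75, all above the highest control gradient, and P exceeded NP by 0.89 ± 0.11 (edgeR adjusted p = 0.00107). nhl-2 was at 0.73, 0.82 and 0.65, again without overlap (0.82 ± 0.11, edgeR adjusted p = 0.00153), though with library size alone it did not pass (0.44, edgeR adjusted p = 0.0987). ncl-1, at 0.38, 0.64 and 0.35, overlapped its control gradients and was still higher in P (0.54 ± 0.14, edgeR adjusted p = 0.0180). That call was lost without NP replicate 2 or 3 or P replicate 2, and with library size alone (0.15). nhl-3 went to -0.46, 0.12 and -0.69, below every control gradient (-0.24 ± 0.24, edgeR adjusted p = 0.435). nhl-1 went to 0.64, 1.23 and 0.11, also below every control gradient (0.80 ± 0.32, edgeR adjusted p = 0.131, with 0.00105 under the replicate block and 0.000525 without gradient 1). Within gld-2(RNAi), 3 of 4 members were higher in P, against 25.9% of expressed genes.

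The change of P/NP between control RNAi and gld-2(RNAi) was tested as an interaction over the 12 gradient libraries. lin-41 passed, with a P/NP ratio higher by 1.02 ± 0.22 on the log2 scale, or 2.02-fold (edgeR adjusted p = 0.0246); it was the 1 of 4 members that did, against 2.95% of expressed genes, whose median change was -0.14. The call was lost in 4 of 12 fits without a single library, those without NP control replicate 3, NP gld-2(RNAi) replicate 2 or 3, or P control replicate 2 (highest adjusted p = 0.0644), and when every gene with a count was tested (edgeR adjusted p = 0.0796). Without replicate 1 of every group the change was 1.38. nhl-2 had a change of the same sign, 0.58 ± 0.16, that did not pass (edgeR adjusted p = 0.0585). It passed with 1 level per gradient as a block (edgeR adjusted p = 0.00577) and in 6 of 12 fits without a single library. nhl-3 gave -0.88 ± 0.41 (edgeR adjusted p = 0.246; 0.0156 with the gradient block), the opposite sign to lin-41, and with the block 3 members passed. Without gradient 1 nhl-2 and nhl-3 passed too, at 0.79 and -0.79 (edgeR adjusted p = 0.000180 and 0.00447). ncl-1 gave -0.27 ± 0.20 (edgeR adjusted p = 0.472) and nhl-1 -0.79 ± 0.53 (edgeR adjusted p = 0.877). The 14 oocyte and eggshell markers had a median change of -0.72, opposite in sign to that of lin-41. Of these markers 0 passed as higher, near the 2.95% of expressed genes, and 4 passed as lower. The share of expressed genes that passed as lower is not given here.

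In gld-4(RNAi), P exceeded NP for ncl-1 (0.31, 0.38 and 0.82 by gradient, 0.60 ± 0.16 in the fit, edgeR adjusted p = 0.0206). It was 1 of 4 members, a share near the 27.2% of expressed genes. P also exceeded NP for nhl-1 (0.71, 0.86 and 1.06 by gradient, 0.85 ± 0.24 in the fit, edgeR adjusted p = 0.0445). Of the 21168 genes with a count, 7.57% passed as higher. 3 of 6 fits without a single library lost the ncl-1 call, and each of the 6 lost that of nhl-1. The other members had log2 P over NP differences of 0.13 for lin-41, 0.23 for nhl-2 and 0.73 for nhl-3, with adjusted p of 0.102 to 0.536. The replicate block added nhl-3 (edgeR adjusted p = 0.00513), and without gradient 1 nhl-2 and nhl-3 passed as higher, at 0.27 and 0.69 (edgeR adjusted p = 0.00523 and 4.73e-05). For the change of P/NP against control RNAi, 0 of 4 members passed, and the log2 changes were 0.28 ± 0.26 for lin-41, -0.20 ± 0.22 for ncl-1, -0.004 ± 0.188 for nhl-2, 0.10 ± 0.45 for nhl-3 and -0.66 ± 0.45 for nhl-1 in the fit of every gene. Over all expressed genes 0.0135% passed as higher and 0.027% as lower, with 845 at an unadjusted p under 0.05, and DESeq2 called 0 members too. The comparisons of gld-2(RNAi) and of gld-4(RNAi) with control RNAi share their control libraries.

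The mRNAs of proteins linked with LIN-41 in oocytes, not all of them its partners or targets, fell broadly in gld-2(RNAi) input. Of 15 such genes tested, 13 passed as lower and 0 as higher, with a median log2 difference of -1.82, where 24.7% of expressed genes passed as lower and 21.4% as higher with a median of 0.03. The smallest p-values were those of orc-1, a subunit of the origin recognition complex (-2.19 ± 0.13, edgeR adjusted p = 0.000197), zif-1, which directs the breakdown of CCCH zinc finger proteins in embryos (-2.71 ± 0.19, edgeR adjusted p = 0.000269), mex-3, an RNA-binding regulator of the early embryo (-1.22 ± 0.10, edgeR adjusted p = 0.000299), and pos-1, a CCCH zinc finger protein (-2.58 ± 0.21, edgeR adjusted p = 0.000318). oma-1, whose protein shares particles with LIN-41, had a log2 difference of -0.14 ± 0.32 and did not pass (edgeR adjusted p = 0.745), whereas its near copy oma-2 fell by 1.98 ± 0.22 (edgeR adjusted p = 0.000791). Both oma genes are also on the oocyte marker list. In gld-4(RNAi) input, 0 of the 15 fell and 2 rose, mex-3 (0.51 ± 0.11, edgeR adjusted p = 0.0323) and sel-10, an F-box protein (0.43 ± 0.09, edgeR adjusted p = 0.0289), with a median of 0.31, where 7.08% of expressed genes passed as higher. For the change of P/NP in gld-2(RNAi), 0 of the 15 passed as higher, near the 2.95% of expressed genes that did. Passing as lower were 4, oma-1, oma-2, spn-4 and mex-3, by 0.89 to 1.23 on the log2 scale (largest edgeR adjusted p = 0.0298). The other 11 did not pass, and the share of expressed genes that passed as lower is not given here. The median change of the 15 was -0.20, close to the -0.14 of all expressed genes.

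**Figure D4:**
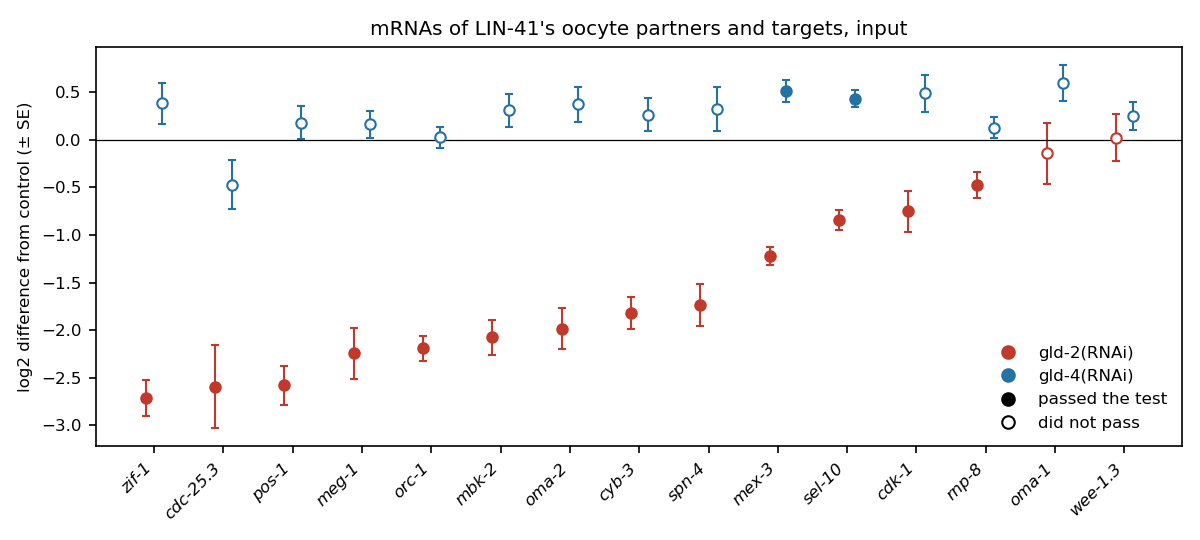
Log2 difference from control RNAi in input (vertical axis, ± SE) of 15 mRNAs whose proteins are linked with LIN-41 in oocytes, ordered by the gld-2(RNAi) value. Filled points passed the test. From -2.71 for zif-1 to 0.02 for wee-1.3, 13 of 15 passed as lower in gld-2(RNAi), and in gld-4(RNAi) mex-3 and sel-10 passed as higher.

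In the developmental timing pathway through which let-7 reaches lin-41, 11 of 13 listed genes were found in the table and 5 were expressed. Of these, 4 fell in gld-2(RNAi) input, against the 24.7% of expressed genes, with a median log2 difference of -1.06: lin-28, which blocks let-7 maturation (-0.88 ± 0.12, edgeR adjusted p = 0.00157), lin-42, related to the period genes of flies (-1.66 ± 0.45, edgeR adjusted p = 0.0214), the transcription factor hbl-1 (-3.47 ± 0.98, edgeR adjusted p = 0.0255) and the RNA-binding gene sup-26 (-1.06 ± 0.35, edgeR adjusted p = 0.0427). lin-29, the transcription factor downstream of LIN-41 in the larval epidermis, had a mean of 16.1 normalized counts over the input libraries and was not tested. In gld-4(RNAi) input the log2 differences of the 5 ran from -0.79 for lin-42 to 0.22 for lin-28, with adjusted p of 0.157 or more.

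For NHL-2, 11 of 12 listed partners in microRNA and small RNA complexes were tested. They divided in gld-2(RNAi) input, with 2 lower, 4 higher and a median log2 difference of 0.08, against 24.7% lower and 21.4% higher among expressed genes. The Argonautes of the microRNA pathway, alg-1 (-0.93 ± 0.28, edgeR adjusted p = 0.0306) and alg-2 (-1.03 ± 0.18, edgeR adjusted p = 0.00444), fell with nhl-2, while the small RNA factors drh-3, a helicase (1.08 ± 0.10, edgeR adjusted p = 0.000500), and dcr-1, the Dicer nuclease (1.14 ± 0.15, edgeR adjusted p = 0.00136), rose with csr-1 and ego-1. cgh-1, whose helicase acts with NHL-2, had a log2 difference of -0.01 ± 0.16 (edgeR adjusted p = 0.957). In gld-4(RNAi) input, where nhl-2 rose, cgh-1 (0.69 ± 0.15, edgeR adjusted p = 0.0272) and dcr-1 (0.67 ± 0.13, edgeR adjusted p = 0.0213) rose too, 2 of 11 against 7.08% of expressed genes, and 0 fell.

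Around NCL-1, 9 of 13 listed genes of the nucleolus and of ribosome production were tested, and 3 fell in each knockdown, against 24.7% of expressed genes in gld-2(RNAi), a share near that of the list, and 7.54% in gld-4(RNAi). In gld-2(RNAi) input these were nol-10 (-0.80 ± 0.11, edgeR adjusted p = 0.00171), rpoa-2, an RNA polymerase I subunit (-0.79 ± 0.13, edgeR adjusted p = 0.00283), and dao-5 (-0.71 ± 0.13, edgeR adjusted p = 0.00477), with a median of -0.26 over the 9. Fibrillarin, fib-1, whose production NCL-1 restrains, had a log2 difference of -0.63 ± 0.30 that did not pass (edgeR adjusted p = 0.127). In gld-4(RNAi) input fib-1 fell (-0.55 ± 0.09, edgeR adjusted p = 0.0165), as did nol-10 and dao-5, with a median of -0.55. Of the ubiquitin-conjugating enzymes listed for NHL-1, 5 of 6 were tested. 1 fell in gld-2(RNAi) input, a share near the 24.7% of expressed genes, ubc-1 (-1.10 ± 0.18, edgeR adjusted p = 0.00338), and its P/NP rose (0.95 ± 0.18, edgeR adjusted p = 0.0174). In gld-4(RNAi) input the 5 had log2 differences of -0.61 for uev-1 to 0.20 for let-70, and the lowest adjusted p was 0.0552. In P of gld-4(RNAi), 3 of the 5 passed as lower and 0 as higher, with a median of -0.54. There 2.68% of expressed genes passed as lower.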

How the data were processed

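RNA was measured by poly(A)-enriched, single-read sequencing in 27 libraries of whole young adult N2 worms, 3 for each RNAi group in input, NP and P. The authors removed adapters, aligned reads with TopHat2 to WS220, discarded reads that aligned more than once and assigned the rest to genes with featureCounts (Subread 1.4.0). The deposited values are raw counts of 45461 features, 23650 of them with a count. The methods name a strand-specific kit and the results a sequencing without strand, so strand use in the counting is unknown. The authors' comparison tables hold DESeq fold changes and p-values; they served only to name 16357 features (others came from RefSeq locus tags), and their 72 columns of per-sample values stayed unused.

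The normalized counts given were scaled by TMM over 7418 expressed genes in all 27 libraries. Tests were made with edgeR 4.0.16 (robust quasi-likelihood, Benjamini-Hochberg adjustment over all genes tested) in R 4.3.3. They used the 6 libraries of each pair of groups and, for a change of P/NP, 12 as an interaction. Each test scaled its own libraries again by TMM, for nhl-1 over every gene with a count. The log2 difference of nhl-1 therefore need not follow its normalized counts. Fold changes are relative to the average expressed mRNA. Exon lengths are those of WBcel235, and no coordinates are given. Alternatives were a replicate block, DESeq2 1.42.0, library size alone, DESeq2 size factors, lower minimums, 1 fit of all 27 libraries, leaving out each library and, added after the data were seen, leaving out replicate 1 of every group.

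Same-numbered libraries deviated together from their group means in every comparison (r = 0.5 to 0.905), but libraries numbered 2 and 3 did so with each other too (up to 0.87). For example, NP control replicate 2 had r = 0.5 with NP gld-2(RNAi) replicate 2 and 0.536 with replicate 3. These values set replicate 1 apart and cannot show that replicates 2 and 3 are paired by number. The main tests do not use the numbers as pairs, also where NP and P of the same number are read as the same gradient. Verdicts on P/NP depend on this choice, and the replicate block is given as an alternative wherever it changed a call. Replicates differed by more than counting noise (9.22 to 203 for chi-square divided by its degrees of freedom), and no 2 libraries were copies. Separate cultures are not stated for the libraries, so p-values measure the spread between these libraries. The steps were tested on simulated data. The members and gene lists were chosen with earlier results of these data known. Each member is named in every comparison, and from each list up to 4 genes that passed with the smallest p or that the background names. Figures were drawn with matplotlib 3.10.9.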

Additional observations from a re-analysis of the deposited data

Results flagged for a closer look

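The P/NP ratio of lin-41 differed between control RNAi and gld-2(RNAi) by the test of the difference itself, the interaction of fraction and RNAi, at 1.02 ± 0.22 on the log2 scale (edgeR adjusted p = 0.0246). By gradient, log2 P/NP was 0.15, -0.48 and -0.52 in control RNAi and 0.75, 0.90 and 0.75 in gld-2(RNAi), higher in 3 of 3 gld-2(RNAi) gradients. Control gradient 1 lay closest to those of gld-2(RNAi), and in that gradient the sperm markers summed to 3286 normalized counts in NP and 11760 in P, against 704 to 948 and 2202 to 2209 in gradients 2 and 3. Muscle, intestine and epidermis markers also had their highest sums in that control gradient, and embryo markers their lowest. In NP of gld-2(RNAi) the sperm markers summed to 32310, 9313 and 8912 in gradients 1 to 3. The part of all these markers in the ratio was not tested, and without replicate 1 of every group the change was 1.38.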

How the results depend on the processing

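Over 7 planned settings and 1 added after the data were seen, 468 log2 differences of single members were recomputed. Of these 399 kept their direction and side of the threshold, 37 newly passed, 14 no longer passed and 18 changed sign. The number of members past the threshold stayed within 1.5 times in 64 of 96 cases, the cause of the other changes was not tested, and settings with a lower minimum also count nhl-1.

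For gld-4(RNAi) input, 1 member passed, against 3 with the replicate block, 0 with a mean of at least 10 counts or every gene with a count and 3 without replicate 1 of every group. In NP of gld-4(RNAi) 1 became 2 with the block, DESeq2 or without replicate 1, and 0 with library size alone or either lower minimum. In P of gld-4(RNAi) 0 became 1 with the block, DESeq2, all 27 libraries in 1 fit or without replicate 1. For P against NP the 1 of control RNAi became 3 with the block or without replicate 1, and 2 with library size alone or either lower minimum. In gld-2(RNAi) 3 became 1 with library size alone. In gld-4(RNAi) 1 became 2 with the block, DESeq2 or the minimum of 10, 3 without replicate 1 and 0 with library size alone. For the change of P/NP in gld-2(RNAi) 1 became 3 with the block or without replicate 1, 2 with DESeq2, DESeq2 size factors, the minimum of 10 or all 27 libraries, and 0 with every gene with a count. Without replicate 1 the 3 members of gld-2(RNAi) in NP, and of gld-2(RNAi) against gld-4(RNAi) in input, became 4. The block changed no other count of members by more than 1.5 times. Over all expressed genes, 74 passed past 2-fold for the change of P/NP in gld-2(RNAi), against 252 with the block and 267 without replicate 1. In gld-2(RNAi) input 1514 of 7418 genes tested passed past 2-fold. At the minimum of 10 it was 2925 of 12173, and with every gene 3215 of 19767, so that these counts are over different numbers of genes.

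The sign turned with library size alone for ncl-1 in NP of gld-4(RNAi) (-0.042), lin-41 in P of gld-4(RNAi) (0.003), nhl-2 for P against NP in control RNAi (-0.16), lin-41 and nhl-2 for P against NP in gld-4(RNAi) (-0.15 and -0.045) and nhl-2 for the change of P/NP in gld-4(RNAi) (0.12). That scaling put the median of expressed genes at -0.16 for P against NP in gld-4(RNAi), from 0.12. It turned for ncl-1 in NP of gld-4(RNAi) at the minimum of 10 (-0.10), with every gene (-0.12) and without replicate 1 (-0.15), and for lin-41 in P against NP of gld-4(RNAi) with every gene (-0.027) and without replicate 1 (-0.005). The nhl-2 change of P/NP in gld-4(RNAi) was 0.008 with the block, 0.011 with all 27 libraries and 0.23 without replicate 1. Without replicate 1, lin-41 in gld-4(RNAi) was at 0.005 in input and 0.16 in P, nhl-1 in P of gld-4(RNAi) at -0.11, and the ncl-1 change of P/NP in gld-4(RNAi) at 0.014.

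Leaving out 1 library at a time, the members past the threshold were 3 to 4 for gld-2(RNAi) in input and in P, 3 in NP and 3 against gld-4(RNAi) in input. They were 0 to 1 for gld-4(RNAi) in input and 0 in NP and P. For P against NP they were 1 to 2 in control animals, 2 to 3 in gld-2(RNAi) and 0 to 2 in gld-4(RNAi), and for the change of P/NP 0 to 2 in gld-2(RNAi) and 0 in gld-4(RNAi). The log2 ranges that crossed 0 were, for gld-2(RNAi), nhl-1 in input (-0.51 to 0.20) and NP (-0.48 to 0.035), and for gld-4(RNAi), lin-41 in input (-0.40 to 0.09), ncl-1 in NP (-0.14 to 0.14), and lin-41 (-0.23 to 0.086), nhl-1 (-0.14 to 0.24) and nhl-3 (-0.44 to 0.039) in P. Those of lin-41 for P against NP in gld-4(RNAi) (-0.10 to 0.23), and of nhl-2 (-0.10 to 0.092) and nhl-3 (-0.16 to 0.35) for the change of P/NP in gld-4(RNAi) did so too. nhl-1, with a mean of 30.3 counts in input, is the member whose depth limits its values most.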

Other observations

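The mean levels of lin-41, ncl-1 and nhl-2 followed each other over the 9 groups, with Pearson's r of 0.927 for lin-41 and ncl-1, 0.940 for lin-41 and nhl-2 and 0.906 for ncl-1 and nhl-2 (over log2 values scaled to library size). The 3 low groups of gld-2(RNAi) weigh on each value, and the NP and P groups of an RNAi share their gradients. nhl-1 and nhl-3 had r = 0.760 with each other and 0.026 to 0.414 with the rest. Among 7414 other expressed genes, the most alike were smk-1, rsp-6 and dpy-28 for lin-41 (r = 0.990 to 0.986), Y17G7B.18, set-26 and let-765 for ncl-1 (0.984 to 0.975), and Y18D10A.11, Y73B3B.1 and npp-7 for nhl-2 (0.990 to 0.989). For nhl-1 they were pkc-2, Y43F8B.2 and hum-4 (0.973 to 0.972), and for nhl-3 dgn-1, K12H6.6 and zoo-1 (0.971 to 0.961). Between 47 genes (nhl-3) and 166 genes (nhl-2) had r over 0.9 with a member.

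Within NP, the share of each member in the summed family level per kilobase was set side by side for the 3 RNAi groups, with no test. nhl-3 made up 21.4% ± 2.67 of it in NP of gld-2(RNAi) (mean ± SD, n = 3), against 8.29% ± 1.10 in NP of control RNAi and 6.73% ± 1.94 in NP of gld-4(RNAi), although its own NP level was 181 ± 28.6 normalized counts in gld-2(RNAi) and 229 ± 45.8 in control RNAi; lin-41, ncl-1 and nhl-2, which make up most of the sum, were lower there. lin-41 made up 27.8% ± 1.80 against 40.9% ± 2.09 and 30.7% ± 5.60.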
